A study of Mus musculus with 6 samples.

Results

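The HOX genes were taken as every gene whose symbol is Hox followed by one of the letters a to d and a number, which gave 39 genes in the mouse annotation and 38 rows among the 37384 rows of the count table. Hoxd4, the remaining gene, has no row in the count table used here and was not analysed here. Of the 38 listed genes, 26 passed the filter on low counts and were tested, 12 did not, and 4 of those 12 (Hoxb13, Hoxd11, Hoxd12 and Hoxd13) had 0 counts in all 6 libraries. RNA was sequenced from floated adipocytes of inguinal subcutaneous white adipose tissue (scWAT) of male mice at postnatal day 7, with 3 libraries per genotype and each library a pool of 4 mice. L1L2-FF mice carried floxed alleles of both Lats1 and Lats2 (Lats1f/fLats2f/f), and L1L2-AKO littermates carried the same floxed alleles plus Adipoq-Cre, a Cre recombinase driven by the adipocyte promoter of Adipoq. LATS1 and LATS2 are the Hippo pathway kinases that restrain the coactivators YAP and TAZ. Nothing in the labels ties a mouse to a library, so the p-values measure the spread between these pools.

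HOX genes encode homeodomain transcription factors that give cells along the head-to-tail axis of the embryo their positional identity. They lie in 4 clusters, HOXA to HOXD, and are numbered by 13 paralog groups, so that genes of one number in different clusters descend from one ancestral gene. Genes at the 3′ end of a cluster carry the low numbers and are used in the anterior body, and genes at the 5′ end carry the high numbers and are used in the posterior body, a match of gene order and body order called collinearity. Adult cells, among them adipocytes and their progenitors, keep a HOX pattern that differs between fat depots. HOX proteins bind DNA together with cofactors of the TALE class (PBX, MEIS and PKNOX proteins), and silent HOX genes are held by Polycomb complexes, whose action trithorax proteins oppose.

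The libraries held between 30548473 and 32107917 counts. Lats1 had 82.9 ± 9.90 CPM (counts scaled to a common library size, mean ± SD, n = 3) in L1L2-FF and 40.2 ± 1.16 in L1L2-AKO, a log2 fold change of -1.04 (SE 0.118, edgeR adjusted p = 0.00131). Lats2 went against the label, with 76.4 ± 8.68 CPM in L1L2-FF and 119 ± 20.6 in the libraries labelled L1L2-AKO, a log2 fold change of 0.64 (edgeR adjusted p = 0.0278). A count over the whole gene does not separate the floxed part from the rest. In a separate measurement, the paper reported reduced mRNA of both Lats1 and Lats2 in scWAT adipocytes of male L1L2-AKO mice at this age. Of the 10 mature adipocyte markers tested, 4 fell by edgeR (background 7.18% of all tested genes), 6 by DESeq2, and 3 to 6 with a library left out. None rose (0 higher at an unadjusted p under 0.05, by DESeq2 or by limma-voom). Their summed level ranged from 21300 to 22940 CPM in L1L2-FF and from 12820 to 15950 in L1L2-AKO. Of the 13 macrophage markers, 11 rose (background 9.28%, and 7 markers without L1L2-FF replicate 1), with a summed level of 247 to 465 CPM in L1L2-FF and 900 to 1003 in L1L2-AKO. No marker of either list was at 0 in all libraries, and their part in the HOX values below was not tested. In such bulk libraries, fewer cells of a type and less RNA per cell cannot be told apart.

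The sequences that follow are 60 bases of the homeobox of 3 HOX genes on which the results turn, read 5′ to 3′ on the coding strand from the GENCODE M21 transcripts of the mm10 genome. Each runs through the DNA-recognition helix, and the capitals mark the run of 18 bases that codes the nearly invariant part of that helix, which was found once in the coding sequence of each of the 39 HOX genes. Hoxc6 is shown because it passed the test with the lowest adjusted p, and Hoxc8 and Hoxd8 because they are the abundant paralogs of group 8 and gave different values.
Hoxc6: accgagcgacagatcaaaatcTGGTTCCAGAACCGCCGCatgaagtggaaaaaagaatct
Hoxc8: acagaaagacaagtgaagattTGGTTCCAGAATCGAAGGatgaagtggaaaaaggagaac
Hoxd8: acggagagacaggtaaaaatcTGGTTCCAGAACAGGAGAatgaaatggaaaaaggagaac
All 3 stretches lie in exon 2 of 2 of their gene, at chr15:103010874-103010933 on the plus strand for Hoxc6, chr15:102992691-102992750 on the plus strand for Hoxc8 and chr2:74706645-74706704 on the plus strand for Hoxd8. Over the whole homeobox of 180 bases, the 42 pairs of one paralog group were identical at a median of 80.6% of bases (67.2 to 93.9%), against 61.7% (48.3 to 88.9%) for pairs within a cluster and 60.6% (46.1 to 86.1%) for the remaining pairs. The ranges overlapped, and the neighbours Hoxa6 and Hoxa7 were identical at 88.9%, above the 85.6% of the paralogs Hoxa6 and Hoxb6. Hoxc8 and Hoxd8 were identical at 73.3% of bases, Hoxc6 and Hoxd8 at 68.9%, and Hoxc6 and Hoxc8 at 67.8%.

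The position of expression along the clusters was read first in the L1L2-FF control mice, on a level that allows genes of different length to be compared (CPM divided by the kilobases of the gene's exons). Members of paralog groups 4 to 10 carried most of the HOX expression of these adipocytes, and it stopped sharply after group 10. The 9 listed members of groups 11 to 13, the genes of the tail, limbs and genital region, held 53 of the 49735 HOX counts of all 6 libraries, with at most 6 counts in any library, and none of them passed the filter. The 4 genes at 0 are all in these groups, and a count of 0 in a library allows up to 3 counts. Of the 29 listed members of groups 1 to 10, 26 passed the filter, and the 3 that did not were Hoxb1 (0 counts in 5 libraries and 4 in L1L2-FF replicate 3), Hoxd1 (0 to 6 counts) and Hoxd10 (2 to 10 counts).

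**Figure D1:**
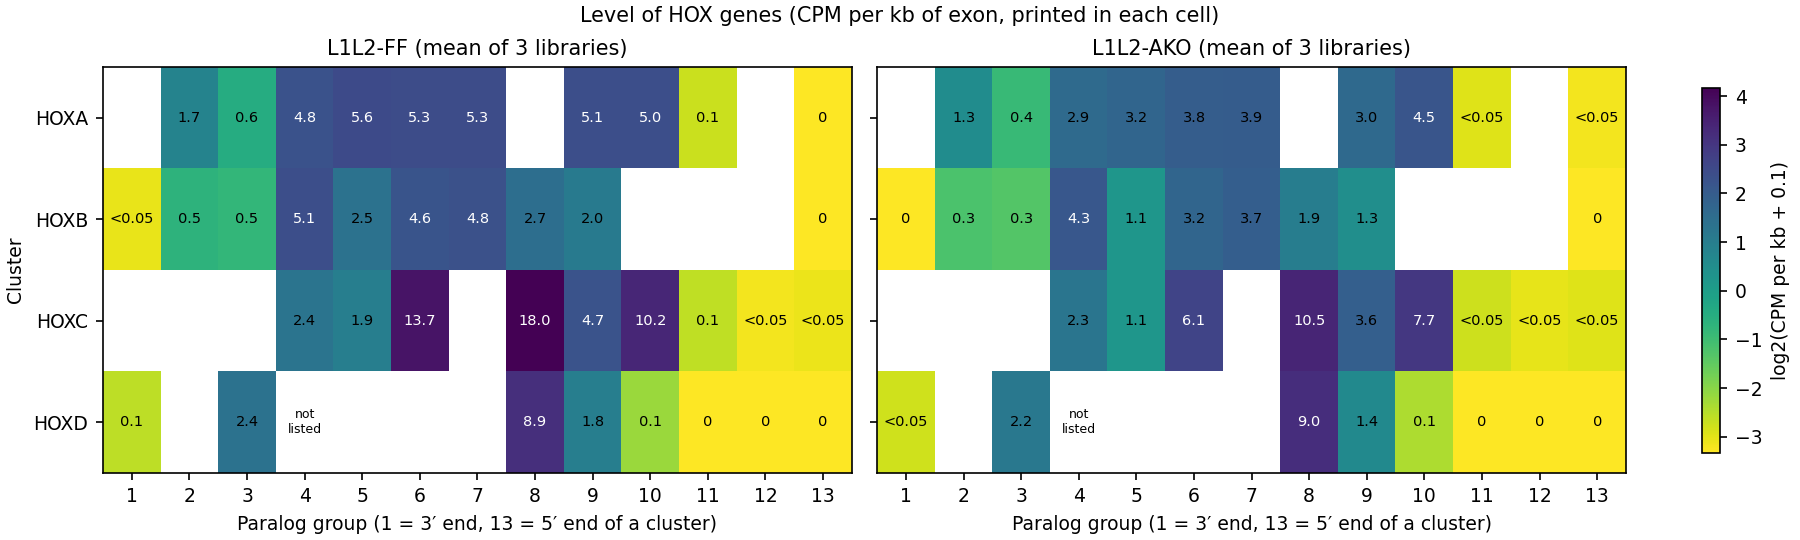
Mean level of the HOX genes in CPM per kb of exon over 3 libraries, printed in each cell and coloured on a log2 scale with 0.1 added, with clusters as rows and paralog groups as columns, for L1L2-FF (left) and L1L2-AKO (right). White cells have no gene or no value shown, Hoxd4 has no row in the table, and the dark cells stop after group 10 in both genotypes.

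The highest level in L1L2-FF was that of Hoxc8, a central gene of the thoracic region. Its level in the 3 L1L2-FF libraries was 18.0 ± 5.10 CPM per kb (SD), ahead of Hoxc6 at 13.7 ± 2.30, Hoxc10 at 10.2 ± 1.78 and Hoxd8 at 8.88 ± 0.32. Hoxc8 was above Hoxc6, and Hoxc6 above Hoxc10, within each of the 3 libraries, although the ranges of neighbours overlapped between libraries. Hoxc10 and Hoxd8 did not keep one order, since Hoxd8 was the higher of them in L1L2-FF replicate 2. Hoxd8 stood clear of the next gene, Hoxa5, which had 5.56 ± 1.20 CPM per kb, followed within overlapping ranges by Hoxa6 at 5.34, Hoxa7 at 5.29 and Hoxa9 at 5.10. Among all tested genes, on the same per-length level in L1L2-FF, Hoxc8 was at percentile 83.8, Hoxc6 at 78.8, Hoxc10 at 72.6 and Hoxd8 at 69.4, whereas the lowest tested member, Hoxb3, was at 15.6 with 0.479 ± 0.190 CPM per kb. Tested members had between 23 and 2004 counts per library.

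The clusters contributed unequally, and HOXC gave most. The summed level of all listed members in L1L2-FF was 121.9 ± 10.8 CPM per kb, to which HOXC gave 41.4 ± 4.18%, HOXA 28.9 ± 2.02%, HOXB 18.7 ± 1.33% and HOXD 11.02 ± 1.20%. HOXC lies on chromosome 15 (102921103 to 103036852, mm10), HOXA on chromosome 6 (52155590 to 52260880), HOXB on chromosome 11 (96194316 to 96368256) and HOXD on chromosome 2 (74668310 to 74765142). Within HOXC, 4 genes, Hoxc6, Hoxc8, Hoxc9 (4.66 ± 0.66 CPM per kb) and Hoxc10, were each over the level of Hoxc4 (2.36 ± 0.24) and Hoxc5 (1.86 ± 0.42 CPM per kb) in all 3 libraries. Within HOXD, Hoxd8 was far above Hoxd3 (2.45 ± 0.61), Hoxd9 (1.84 ± 0.12) and Hoxd10 (0.116 ± 0.073 CPM per kb), so levels in HOXD dropped at a lower paralog number than in HOXA and HOXC, where the group 10 genes had 5.03 ± 0.74 and 10.2 ± 1.78. HOXA was even from Hoxa4 to Hoxa10, between 4.77 and 5.56 CPM per kb, and lower in Hoxa2 at 1.68 and Hoxa3 at 0.629.

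By body zone, the central groups 4 to 8 gave 70.0 ± 0.85% of the summed level in L1L2-FF, the posterior groups 9 to 13 gave 23.8 ± 0.86% and the anterior groups 1 to 3 gave 6.23 ± 1.57%. Group 8 was the largest single group at 24.1 ± 2.74%, followed by group 6 at 19.4 ± 1.80% and group 10 at 12.5 ± 1.14%. The groups also hold genes whose counts could be split with neighbours: 62.8% of the exon bases of Hoxd3 lie in other annotated genes, Hoxd4 among them, as do 52.9% of Hoxb3, 27.3% of Hoxb2 and 27.1% of Hoxa3. The counter and its strand setting are not given in the sources used here, so sense and antisense reads of these loci cannot be told apart.

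The genotypes were then compared to see whether this position held in the libraries labelled L1L2-AKO. Expression again stopped after group 10 in L1L2-AKO. The summed HOX level of every L1L2-AKO library was below that of every L1L2-FF library, and this sum was not tested. Within that limit the position was not identical. On the per-length level the shares of HOXD, group 5, group 6 and the posterior groups, among others, did not overlap between genotypes, also without a test. No member of groups 11 to 13 had over 6 counts in any L1L2-AKO library, and the mean levels of the 38 members had a Spearman rho of 0.969 between genotypes (0.917 over the 26 tested members, a description across genes that share libraries and are not independent). Of the 10 highest members in L1L2-FF, 8 were among the 10 highest in L1L2-AKO, and of the 5 highest, 4. The order at the top changed: Hoxc8 stayed at rank 1 with 10.5 ± 2.42 CPM per kb, Hoxd8 moved to rank 2 with 8.98 ± 0.77, Hoxc10 held rank 3 with 7.72 ± 1.28 and Hoxc6 moved from rank 2 to rank 4 with 6.10 ± 0.62. In both genotypes Hoxc8 overlapped its next neighbour.

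Of the 26 tested HOX genes, Hoxa9, Hoxb5 and Hoxc6 fell in L1L2-AKO and none rose (quasi-likelihood test of edgeR, Benjamini-Hochberg adjusted over all 15674 tested genes, threshold 0.05). That is 11.5% of the members lower, against 7.18% of all tested genes lower and 9.28% higher, so at this threshold the share called lower by edgeR was near the background. DESeq2, which gave a fitted value for 34 members, called 6 lower (background 8.56% of 17680 genes). Limma-voom called 3 of 26 lower (background 6.53%). At an unadjusted p under 0.05 edgeR gave 9 members lower, or 34.6% (background 15.3%). No member was higher at an unadjusted p under 0.05 or by DESeq2 or limma-voom. The fitted change was below 0 in 25 of 26 members (background 52.1%), the exception being Hoxd8, which was at -0.02 with upper-quartile scaling. In 10 of 26 members, or 38.5%, every L1L2-AKO library was below every L1L2-FF library (background 18.4%), with 0 members the other way (background 18.0%). The median log2 fold change was -0.48 over the tested members and -0.02 over all tested genes. These genes lie side by side and share libraries, so their common direction is a description of the set and not a count of independent events.

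Hoxc6, a central gene of the thoracic and forelimb level, gave the lowest adjusted p of the family. Its counts were 1184, 871 and 1065 in L1L2-FF replicates 1, 2 and 3 and 534, 414 and 425 in L1L2-AKO replicates 1, 2 and 3. Every knockout library lay below every control library, with means of 33.0 ± 5.55 and 14.7 ± 1.49 CPM. The log2 fold change was -1.17 (SE 0.159, edgeR adjusted p = 0.00265), which left 44.5% of the control level. No exon base of Hoxc6 was shared with another annotated gene.

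Hoxb5, a central gene of the HOXB cluster known in lung and vagal neural crest development, changed by a like amount from a lower level. It had 219, 199 and 229 counts in the L1L2-FF libraries and 124, 86 and 72 in the L1L2-AKO libraries, so the groups did not overlap. Its mean went from 6.84 ± 0.63 to 2.99 ± 0.66 CPM, a log2 fold change of -1.19 (SE 0.218, edgeR adjusted p = 0.00925) and 43.9% of the control level. Its paralogs of group 5 had fitted values close to those of Hoxc8 and Hoxa9 (both -0.78). Hoxa5 had 373, 374 and 243 counts against 236, 207 and 126 (log2 fold change -0.79, SE 0.246, edgeR adjusted p = 0.0635). Hoxc5 had 149, 170 and 223 counts against 137, 114 and 63 (log2 fold change -0.79, SE 0.286, edgeR adjusted p = 0.102). In all 3 members of group 5 every L1L2-AKO library was below every L1L2-FF library in CPM (background 18.4%), but neither Hoxa5 nor Hoxc5 passed the threshold.

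Hoxa9, a posterior gene best known in blood progenitors and in limb and spinal cord patterning, was the steadiest of the called genes among replicates. It had 923, 835 and 931 counts in L1L2-FF and 526, 552 and 470 in L1L2-AKO, with means of 28.4 ± 2.28 and 16.6 ± 0.84 CPM. The groups were well apart, and the log2 fold change was -0.78 (SE 0.120, edgeR adjusted p = 0.00448), or 58.4% of the control level. The genes on both sides of it in HOXA did not pass: Hoxa7 had 509, 468 and 462 counts against 361, 373 and 312, also without overlap (log2 fold change -0.44, SE 0.132, edgeR adjusted p = 0.0569), and Hoxa10 had 488, 472 and 596 against 503, 437 and 422, which overlapped (log2 fold change -0.17, SE 0.148, edgeR adjusted p = 0.485). Of the exon bases of Hoxa7, 20.4% are shared with other annotated genes, against 1.5% for Hoxa9 and 3.6% for Hoxb5.

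Hoxa9, Hoxb5 and Hoxc6 passed whichever of the 6 libraries was left out, with edgeR adjusted p of at most 0.0279 for Hoxa9, 0.0488 for Hoxb5 and 0.0179 for Hoxc6. Other members passed in some of those fits: without L1L2-FF replicate 2 the count of members lower was 5 (background 8.09%), with Hoxa4 and Hoxc8 added.

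**Figure D2:**
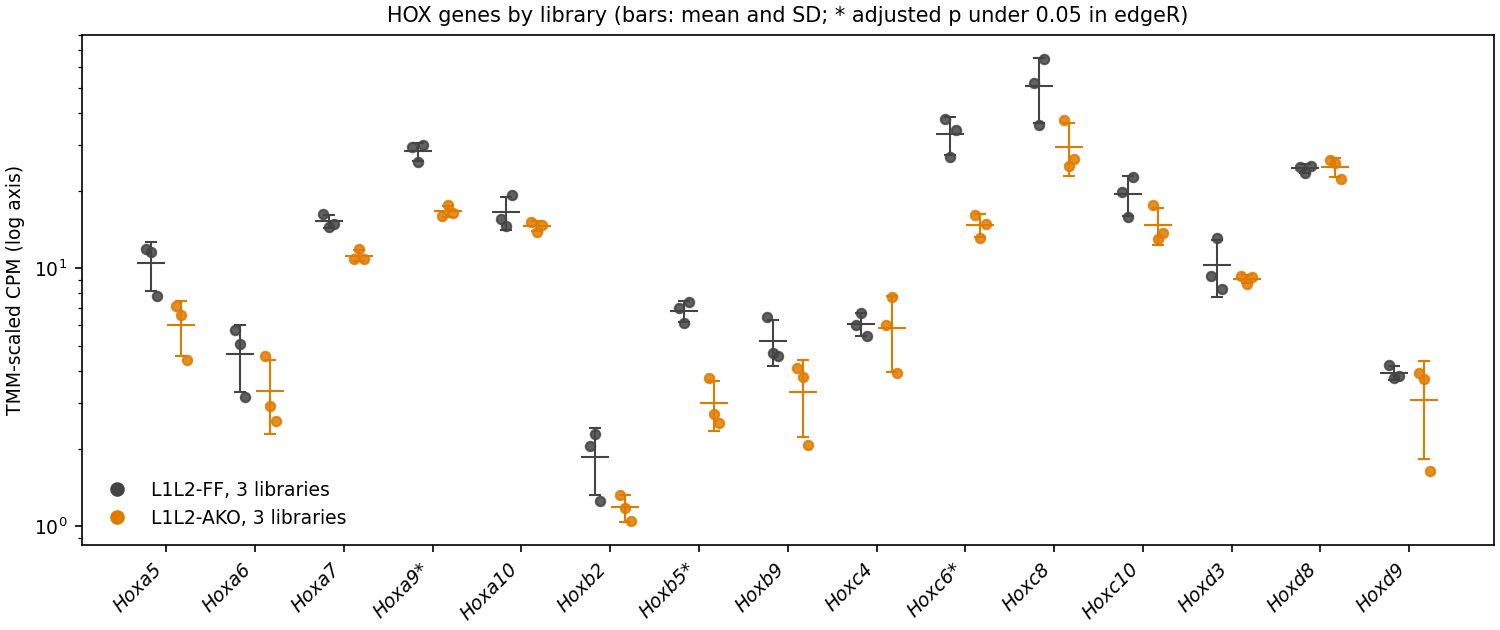
TMM-scaled CPM on a log axis of the HOX genes named with full values, each point 1 library, grey for L1L2-FF and orange for L1L2-AKO, with horizontal marks at the mean and bars of 1 SD over 3 libraries. Hoxa9, Hoxb5 and Hoxc6, marked with stars, show no overlap between genotypes, and the points of Hoxd8 lie at one height.

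Hoxc8 and Hoxd8 set the most abundant paralogs of group 8 side by side. Hoxc8 had 1636, 1157 and 2004 counts in L1L2-FF and 1242, 783 and 760 in L1L2-AKO, with means of 50.9 ± 14.5 and 29.6 ± 6.85 CPM. L1L2-AKO replicate 1 reached above L1L2-FF replicate 2, so the groups overlapped, and the log2 fold change of -0.78 (SE 0.238) did not pass (edgeR adjusted p = 0.0599). Hoxd8 had 774, 755 and 776 counts against 869, 803 and 637, with 24.4 ± 0.89 and 24.6 ± 2.11 CPM and a log2 fold change of 0.02 (SE 0.116, edgeR adjusted p = 0.943). The ratio of Hoxc8 to Hoxd8 within a library, which does not depend on the scaling of libraries, was 2.11, 1.53 and 2.58 in L1L2-FF and 1.43, 0.975 and 1.19 in L1L2-AKO (CPM), without overlap. The pair was picked because its members gave different values, so this ratio describes that choice.

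Ratios within a library were also taken for the called genes over other members of their own cluster. Hoxc6 over Hoxc10 was 1.71 ± 0.19 in L1L2-FF and 1.00 ± 0.08 in L1L2-AKO, and Hoxc6 over Hoxc4 was 5.53 ± 1.31 and 2.73 ± 1.05. Hoxa9 over Hoxa10 was 1.74 ± 0.17 and 1.14 ± 0.11, and Hoxb5 over Hoxb4, which patterns the hindbrain and neck and acts in blood stem cells, was 0.537 ± 0.110 and 0.267 ± 0.036. In each of these ratios the genotypes did not overlap. The pairs were picked with the changes of the called genes known. Their denominators had fitted log2 fold changes of -0.40 to -0.04, so the direction and the lack of overlap describe that choice. The genes on either side of Hoxc6, Hoxc5 at -0.79 and Hoxc8 at -0.78, were not used.

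**Figure D3:**
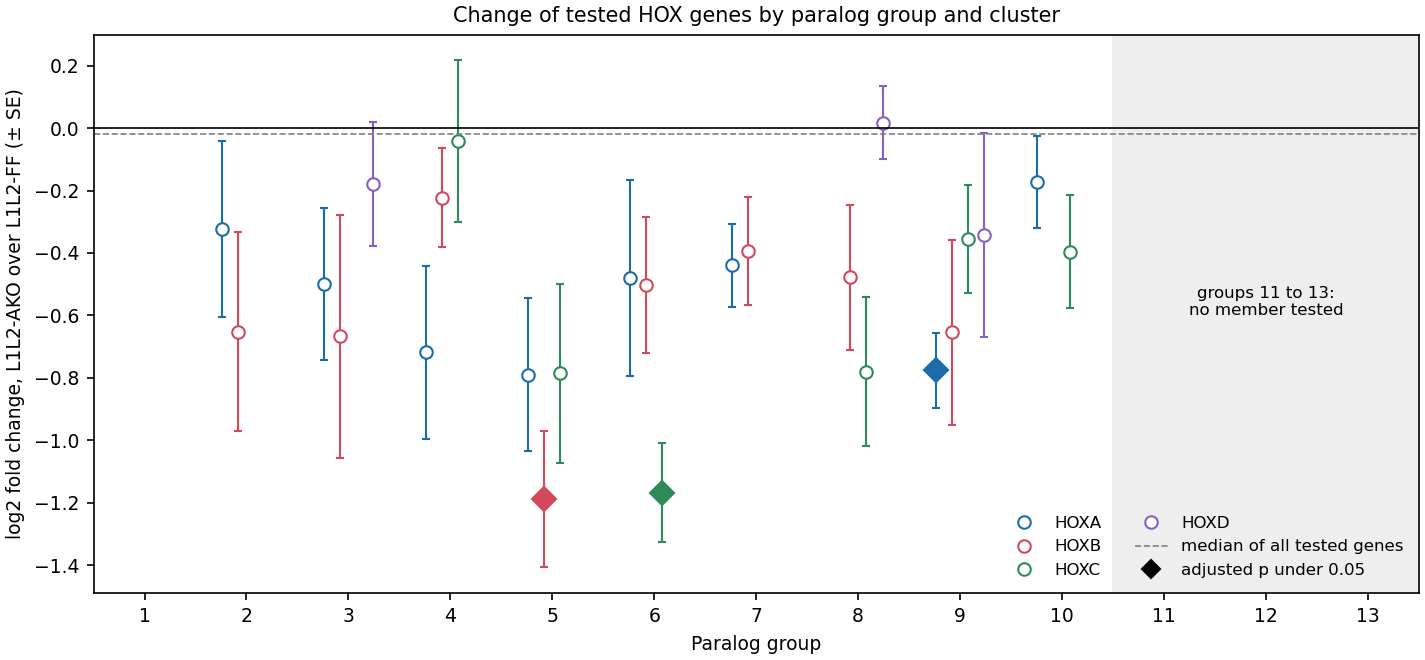
Log2 fold change of L1L2-AKO over L1L2-FF with its SE for the tested HOX genes of groups 2 to 10, by paralog group on the x axis and coloured by cluster, with filled diamonds for adjusted p under 0.05. Points lie below 0 except that of Hoxd8 at 0.02, lowest for Hoxb5 and Hoxc6, and the dashed line marks the median of -0.02 over all tested genes.

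Along the axis, the median log2 fold change was -0.41 over the 6 tested anterior members, -0.49 over the 14 central members and -0.38 over the 6 tested posterior members, with 0, 2 and 1 called lower (background 7.18%). At an unadjusted p under 0.05, 0 anterior, 8 central and 1 posterior members were lower (background 15.3%). Precision differed between members: the anterior Hoxb2 and Hoxb3, with at most 74 and 96 counts, were at -0.65 (SE 0.319) and -0.67 (SE 0.389). The central Hoxa7, with up to 509 counts, was at -0.44 (SE 0.132). Whether the change differs between zones was not tested. Groups 5 and 6 had the lowest summed levels relative to the control: group 5 had 0.543 and group 6 had 0.557 of the L1L2-FF sum, against 0.697 for all HOX genes. Their shares of the HOX sum did not overlap between genotypes, with 8.15 ± 1.06% and 6.25 ± 0.91% for group 5 and 19.4 ± 1.80% and 15.4 ± 1.24% for group 6. The posterior share was 23.8 ± 0.86% in L1L2-FF and 25.7 ± 0.85% in L1L2-AKO, with libraries of 23.9, 22.9 and 24.6% against 24.7, 26.1 and 26.2%, so that the groups did not overlap but the highest control and the lowest knockout library nearly met. With no length correction the posterior share was 27.6, 26.6 and 27.8% against 27.1, 29.2 and 29.3%, and the groups overlapped. The anterior share (6.23 ± 1.57% and 7.43 ± 1.12%) and the central share (70.0 ± 0.85% and 66.9 ± 1.96%) overlapped.

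By cluster, HOXC had 50.8 ± 9.30 CPM per kb in L1L2-FF and 31.4 ± 4.15 in L1L2-AKO, 0.618 of the control. HOXA went from 35.1 ± 2.03 to 24.7 ± 1.91 and HOXB from 22.7 ± 0.68 to 16.2 ± 2.71, and in these 3 clusters the libraries of the genotypes did not overlap. HOXD had 13.4 ± 0.22 and 12.7 ± 1.35 CPM per kb, which overlapped, at 0.953 of the control. The median log2 fold change was -0.48 in HOXA (9 tested, 1 called), -0.58 in HOXB (8 tested, 1 called), -0.59 in HOXC (6 tested, 1 called) and -0.18 in HOXD (3 tested, 0 called by edgeR and 0 at an unadjusted p under 0.05). The HOXD share of the HOX sum was 11.02 ± 1.20% in L1L2-FF and 15.0 ± 0.78% in L1L2-AKO without overlap, carried by Hoxd8, while the HOXC share (41.4 ± 4.18% and 36.9 ± 1.42%) overlapped. Whether the change differs between clusters was not tested.

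**Figure D4:**
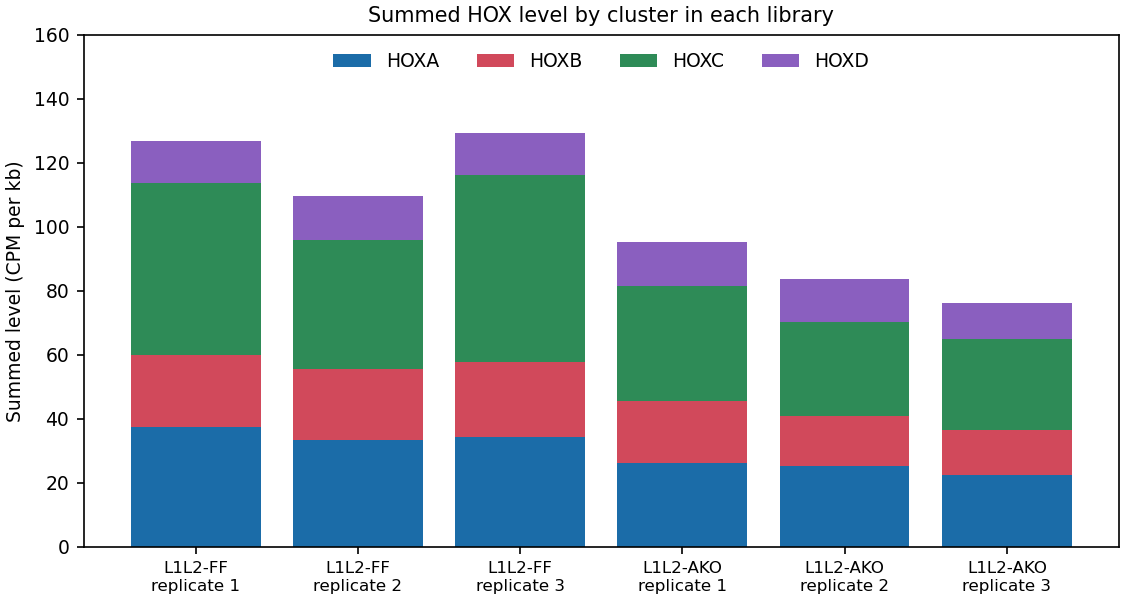
Summed HOX level in CPM per kb in each of the 6 libraries, stacked by cluster. The bars of the 3 L1L2-FF libraries reach 126.9, 109.5 and 129.3 and those of the 3 L1L2-AKO libraries 95.2, 83.7 and 76.0, and the HOXD part is of similar height in all of them.

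At the ends of the clusters, the outermost tested members gave small or uncertain values. At the 3′ end they included Hoxb2, a hindbrain gene with 64, 74 and 39 against 44, 37 and 30 (log2 fold change -0.65, SE 0.319), Hoxc4 with 188, 217 and 170 against 199, 244 and 112 (log2 fold change -0.04, SE 0.260) and Hoxd3 with 293, 425 and 257 against 308, 274 and 264 (log2 fold change -0.18, SE 0.198). The genotypes overlapped in all 3 of these genes. The most 5′ were Hoxa10, given above, Hoxb9 with 202, 152 and 142 against 136, 120 and 59 (log2 fold change -0.65, SE 0.297), Hoxc10 with 621, 511 and 700 against 581, 411 and 391 (log2 fold change -0.40, SE 0.182) and Hoxd9 with 132, 121 and 119 against 130, 117 and 47 (log2 fold change -0.34, SE 0.327). Hoxb9 did not overlap, Hoxc10 and Hoxd9 did, and the edgeR adjusted p of the outermost genes named here was between 0.180 and 0.937. Hoxa6, the remaining one of the 8 most abundant genes, had 181, 164 and 98 counts against 151, 92 and 73 (log2 fold change -0.48, SE 0.313, edgeR adjusted p = 0.352). Hoxa4 had a fitted log2 fold change of -0.72 and Hoxb4 of -0.22, and neither passed.

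The knockout libraries did not carry the lower HOX level equally. L1L2-AKO replicate 3 was the lowest of all 6 libraries in 14 of the 26 tested members and the highest of its genotype in 0, and L1L2-AKO replicate 1 was the highest of its genotype in 18. HOX counts made up 0.0297 to 0.0321% of the counts of the L1L2-FF libraries and 0.0248, 0.0219 and 0.0181% of those of L1L2-AKO replicates 1, 2 and 3. Without L1L2-AKO replicate 3 the median of the tested members was -0.36 on the log2 scale, and Hoxa9, Hoxb5 and Hoxc6 were still the 3 members called (background 3.3%). Markers of adipose progenitors, stromal cells that also carry HOX patterns, had a summed level of 582 to 845 CPM in L1L2-FF. In L1L2-AKO replicates 1, 2 and 3 their sum was 570, 601 and 500 CPM. Of 11 progenitor markers, 2 were lower (background 7.18%, 0 markers without L1L2-FF replicate 1 or L1L2-AKO replicate 2, and 4 without L1L2-FF replicate 3). None was higher by edgeR (1 at an unadjusted p under 0.05, 1 by DESeq2 and 0 by limma-voom), and the median was -0.48. Endothelial markers had a median of -0.45 with 1 of 10 lower (background 7.18%, and 0 markers without L1L2-FF replicate 1 or 2 or without L1L2-AKO replicate 2 or 3). Their summed level was 2018 to 2692 CPM in L1L2-FF and 2633, 2093 and 1215 CPM in L1L2-AKO replicates 1, 2 and 3. No marker of these 2 lists was at 0 in all libraries, and their part in the HOX values was not tested.

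Genes of the TALE cofactors were compared next. Of 8 tested PBX, MEIS and PKNOX genes, 4 rose (background 9.28% of all tested genes) and none fell by edgeR (0 lower at an unadjusted p under 0.05, and 0 by DESeq2 or limma-voom), with a median log2 fold change of 0.47 and a summed level of 165 to 181 CPM in L1L2-FF and 234 to 267 in L1L2-AKO. Meis2, which binds DNA as a partner of HOX and PBX proteins, had 574, 475 and 449 counts against 1035, 878 and 918 (log2 fold change 0.94, SE 0.138, edgeR adjusted p = 0.00361). Its libraries were apart between genotypes, and it passed with any 1 library left out.

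Pknox2 rose from a low level, with 46, 41 and 55 counts against 163, 279 and 402 (log2 fold change 2.62, SE 0.389, edgeR adjusted p = 0.00376), and its 3 knockout libraries were spread widely. Meis3, with 156, 182 and 120 counts against 220, 281 and 248, lay at the threshold (log2 fold change 0.74, SE 0.213, edgeR adjusted p = 0.0498). Its call was lost without L1L2-FF replicate 1 (adjusted p = 0.130), L1L2-FF replicate 3 (0.102), L1L2-AKO replicate 2 (0.168) or L1L2-AKO replicate 3 (0.143), and limma-voom called 3 genes of the list. Pbx2, Pbx3, Meis1 and Pknox1 had log2 fold changes between -0.33 and 0.20 and did not pass, and Pbx4 was not tested.

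**Figure D5:**
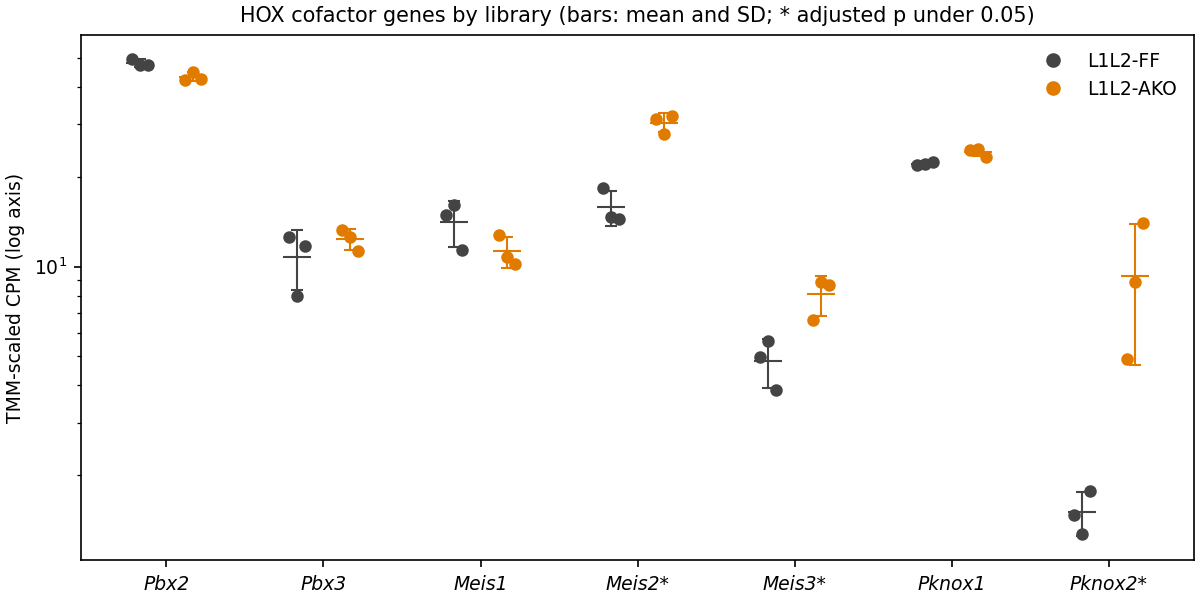
TMM-scaled CPM on a log axis of tested TALE cofactor genes, each point 1 library, grey for L1L2-FF and orange for L1L2-AKO, with marks at the mean and bars of 1 SD over 3 libraries. Meis2, Meis3 and Pknox2, marked with stars, lie higher in L1L2-AKO, and Pbx2, Pbx3, Meis1 and Pknox1 lie close together.

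The chromatin regulators of the clusters gave few calls. Of 29 Polycomb genes tested, 2 were lower (background 7.18%) and none was higher by edgeR (0 higher at an unadjusted p under 0.05, and 0 by DESeq2 or limma-voom), and the median was -0.00. One was Jarid2, a subunit that recruits Polycomb repressive complex 2, with 56.6 ± 8.48 and 39.8 ± 1.12 CPM (log2 fold change -0.51, SE 0.131, edgeR adjusted p = 0.0349). Its call was not firm: of the 6 fits that left out 1 library it passed in 1, that without L1L2-FF replicate 3, and in the others the adjusted p was up to 0.132. The count of Polycomb genes lower was 0 without L1L2-FF replicate 1 or 2 or L1L2-AKO replicate 2 or 3. Rbbp7, the most abundant Polycomb gene, had 138 ± 9.38 and 143 ± 11.9 CPM. A further list of 14 genes held trithorax factors, H3K27 demethylases and related chromatin regulators. Of these, 0 were called by edgeR, DESeq2 or limma-voom and 0 had an unadjusted p under 0.05, with a median of -0.07. Dot1l, a related regulator and the most abundant of the list, had 146 ± 12.6 and 125 ± 9.75 CPM.

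Among genes that set HOX expression in the embryo (CDX factors, GDF11 and the retinoic acid pathway), 2 of 10 tested rose (background 9.28%). Aldh1a1, an enzyme that makes retinoic acid, had 401, 504 and 632 counts against 2389, 2763 and 3332 (log2 fold change 2.50, SE 0.230, edgeR adjusted p = 0.000623), and passed with any 1 library left out. Rarb, a retinoic acid receptor that is itself induced by retinoic acid, had 208, 228 and 290 counts against 375, 666 and 601 (log2 fold change 1.21, SE 0.266, edgeR adjusted p = 0.0187), and its call was lost without L1L2-FF replicate 1 (adjusted p = 0.0806), L1L2-AKO replicate 2 (0.0780) or L1L2-AKO replicate 3 (0.0720). None of the list was lower by edgeR (1 at an unadjusted p under 0.05, and 0 by DESeq2 or limma-voom), and its median was -0.04. Rxra, the most abundant of the list in both genotypes, had 178 ± 8.02 and 179 ± 20.6 CPM, and Cdx2 and Cdx4 were at 0 in all libraries.

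Other factors of position in limb, trunk and fat depot were counted in the same way. Of 13 tested, 2 rose (background 9.28%) and none fell by edgeR (1 lower at an unadjusted p under 0.05, and 0 by DESeq2 or limma-voom). Prrx1, a homeobox gene of limb and mesenchymal cells, had 1891, 1817 and 1569 counts against 6250, 10345 and 10878 (log2 fold change 2.42, SE 0.251, edgeR adjusted p = 0.000953). Tbx15, a T-box gene that differs between fat depots, had 758, 774 and 773 counts against 1031, 1097 and 1193 (log2 fold change 0.56, SE 0.132, edgeR adjusted p = 0.0255), and its call was lost without L1L2-FF replicate 1 (adjusted p = 0.0886), L1L2-AKO replicate 2 (0.0803) or L1L2-AKO replicate 3 (0.0807). Meox2, a homeobox gene of somites and the most abundant of the list in L1L2-FF, had 2358, 2412 and 2493 counts against 2204, 1598 and 825, a wide spread in L1L2-AKO that did not pass (log2 fold change -0.66, edgeR adjusted p = 0.130).

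The clusters also hold antisense and long noncoding transcripts. Of the 39 other annotated genes inside the clusters that have a row, 12 were tested and 0 were called by edgeR, DESeq2 or limma-voom or had an unadjusted p under 0.05. The most abundant was Hoxb3os, antisense to Hoxb3, with 313, 378 and 334 counts against 231, 300 and 242 (log2 fold change -0.38, edgeR adjusted p = 0.176), which overlaps the exons of Hoxb3 and may share its reads. The lowest fitted value was that of Haglr in HOXD, with 10, 39 and 15 counts against 16, 5 and 6 (log2 fold change -1.22, edgeR adjusted p = 0.248). The 6 microRNA rows had at most 6 counts, which an mRNA library is not made to measure.

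Promoters were read last, as the bases before the start of each gene, since YAP and TAZ reach DNA through TEAD factors. RefSeq promoters (GRCm38.p6, 250 bases upstream) matched 22 of the HOX genes with 24 starts, and Hoxb5, Hoxc6, Hoxc8 and Hoxc10 were not among them. The TEAD core motif GGAATG, searched on both strands, was found in 1 of the 24 HOX promoters, that of Hoxa9, and in 12.6% of all 32851 promoters. The PBX-HOX motif TGATTNAT, on both strands, was found in 2 of the 24 (Hoxa2 and Hoxd11) and in 2.8% of all. HOX promoters held a median of 12.5 CpG dinucleotides, against 6 over all promoters. The promoter of Hoxa9 is shown with its motif match in capitals, beside that of Hoxd8, the one with the smallest fitted change among the 8 most abundant genes, which had no match.
Hoxa9: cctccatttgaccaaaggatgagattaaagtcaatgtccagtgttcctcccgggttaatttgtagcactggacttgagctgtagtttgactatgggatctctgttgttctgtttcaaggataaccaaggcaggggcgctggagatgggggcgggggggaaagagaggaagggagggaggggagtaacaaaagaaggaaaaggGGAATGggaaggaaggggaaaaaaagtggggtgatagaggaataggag
Hoxd8: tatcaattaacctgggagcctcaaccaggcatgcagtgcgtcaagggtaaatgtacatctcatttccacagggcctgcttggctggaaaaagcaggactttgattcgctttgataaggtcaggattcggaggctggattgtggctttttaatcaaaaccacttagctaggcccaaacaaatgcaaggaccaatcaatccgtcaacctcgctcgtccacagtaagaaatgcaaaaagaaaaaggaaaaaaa
These windows are chr6:52227371-52227620 on the minus strand for Hoxa9 and chr2:74704365-74704614 on the plus strand for Hoxd8. The Hoxa9 window lies within an intron of 2 longer annotated Hoxa9 transcripts, and the Hoxd8 window ends at the base before the annotated gene. A match of letters is a description of the window, and binding was not measured here.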

How the data were processed

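RNA-seq counts per gene symbol were deposited for 6 libraries of P7 adipocytes, 3 per genotype. The authors aligned paired reads from oligo(dT)-selected mRNA to mm10 with HISAT2 2.1.0 and used SAMtools and StringTie 1.3.5, and the annotation, the counter and the strand setting are not given in the sources used here. The deposited values are raw counts, whole numbers with no normalization. Reads of overlapping genes may thus be split or shared.

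Counts were tested with edgeR 4.0.16 in R 4.3.3 (TMM scaling, filterByExpr with a minimum count of 10 and a minimum total of 15, quasi-likelihood F-test, two-sided, genotype as the only term), with Benjamini-Hochberg adjustment over 15674 genes and a threshold of 0.05. The standard error was the log2 fold change divided by the root of F. The median log2 fold change of all tested genes was -0.02. CPM used the TMM-scaled library size, and levels per kb used the union of exons in GENCODE M21. Shares and sums have no test: 3 against 3 libraries cannot give an exact two-sided permutation p under 0.1. On simulated counts for 15726 genes, the test recovered 100% of genes changed 4-fold and 67% of genes changed 2-fold, with 12 false among 179 calls. The changed genes were drawn only from those above a floor of mean count, and the same dispersion was used for every gene. These rates therefore do not describe the least abundant HOX members or changes under 2-fold. Within each genotype, libraries differed beyond counting noise in every pair, so no library was a repeat of another. Alternatives used DESeq2 1.42.0, limma 3.58.1 (voom), other scalings and filters, a replicate block, other lengths, and each library left out.

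The genes given full values were the HOX members past the threshold, the 8 highest per length in L1L2-FF and the outermost tested members of each cluster. From each gene list those past the threshold (at most 4) and the most abundant were named. Hoxa4, Hoxb4, Hoxc5, Hoxb3, Hoxb6 and the named noncoding genes were chosen after their values were seen. The members and lists were chosen with earlier results of these data known. For the lists of other cell types the edgeR background was 9.28% of all tested genes higher and 7.18% lower. Mural markers had 2 higher and 2 lower of 8 (0 to 4 lower with a library left out), Schwann 1 higher and 5 lower of 8 (1 to 5 lower), skeletal muscle 0 of 7 (by DESeq2 3 lower, by limma-voom 1 lower, and 3 lower and 1 higher at an unadjusted p under 0.05, and 0 or 1 lower with a library left out) and lymphocyte 0 of 6 by all 3 tools and at an unadjusted p under 0.05, with 2 higher without L1L2-FF replicate 2. No epithelial marker was tested. Some genes and sequences that the rule names are not reported here.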

Additional observations from a re-analysis of the deposited data

How the results depend on the processing

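Hoxa9, Hoxb5 and Hoxc6 were called lower in each alternative run, and no HOX gene was called higher in any of them. The count of members lower was 3 with edgeR on TMM (background 7.18%) and 5 with upper-quartile scaling (Hoxa7 and Hoxc8 added, background 8.3%). It was 6 with DESeq2, of 34 members with a fitted value (Hoxa5, Hoxa7 and Hoxc8 added, background 8.56%), and 3 with limma-voom (background 6.53%). With a library left out it was 3 to 5 (background 2.9 to 8.1%), with 5 without L1L2-FF replicate 2. With the replicate number as a block it was 5 (Hoxa5 and Hoxc8 added, background 7.06%). The deviations of same-numbered libraries correlated at 0.188, 0.255 and -0.054, and not every library correlated best with its own number. The labels give only a shared number, and these few correlations cannot decide whether same-numbered libraries were prepared together. Of the fitted changes of single members, 352 stayed on their side of the threshold, 12 passed it with the same direction, and no called change turned its sign, while the fitted sign of uncalled members, Hoxc4, Hoxd3 and Hoxd8 among them (2, 1 and 4 alternatives), turned in some (values from -0.03 for Hoxd8 to 0.19 for Hoxc4). Over all genes 2580 passed, and 1281 to 2845 with a library left out, the lowest counts coming from the fits that left out the second (1281) or the third (1374) L1L2-AKO library or the first L1L2-FF library (1290).

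With the exon length of the transcript with the longest coding sequence, the summed HOX level was 151.7 CPM per kb in L1L2-FF and 103.0 in L1L2-AKO, the posterior share 22.6% and 24.6%, and the HOXC share 39.5% in L1L2-AKO. With no length the posterior share was 27.4% and 28.6%, and its libraries overlapped between genotypes. With a library left out, the summed level was 118.2 to 128.1 in L1L2-FF and 79.8 to 89.5 in L1L2-AKO, the posterior share 23.4 to 24.3% and 25.4 to 26.2%, and the HOXC share 39.6 to 43.7% and 36.4 to 37.7%. Depth limits what can be said of groups 11 to 13, where the highest count was 6.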
